A study of Citrus sinensis with 6 samples.

Results

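The 7 genes described here are those that the study's pathway scheme of flavonoid synthesis draws as 4-coumarate:CoA ligase (4CL). They were taken by their gene identifiers from a table of 29875 genes: Cs_ont_1g009820, Cs_ont_2g023650, Cs_ont_4g026210, Cs_ont_5g016610, Cs_ont_5g044180, Cs_ont_7g022600 and Cs_ont_8g005780. All 7 were above 0 in every library. All 7 passed the filter on low values, which asked for 3 or more libraries with an FPKM of 1 or more and left 16421 genes of the table. FPKM counts the reads of a gene relative to its length and to the depth of the library, so levels of different genes can be set side by side.

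The 6 libraries hold leaf RNA of tissue-cultured Citrus sinensis, variety Bingtang, taken on day 25. The boron-deficient group (T, 3 libraries) was grown on 0.01 mg/L and the group with sufficient boron (CK, 3 libraries) on 0.25 mg/L, given as boron in the series design and as boric acid in the study's methods. No transgene or mutation is named for either group, and all plants were regenerated from callus on the same kind of medium. The treatment protocol in the labels gives 0.01 mg/L for all 6 libraries, and the titles read leaf for T and leaf blades for CK, so the part of the leaf and the boron supply cannot be told apart. Whether separate plants gave the libraries of a group is not stated, so a p-value here reflects only how these libraries scatter, which may be technical.

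4CL activates p-coumarate, the product of phenylalanine ammonia-lyase (PAL) and cinnamate 4-hydroxylase (C4H), by joining it to coenzyme A. The product, p-coumaroyl-CoA, is the branch point from which plants draw both the monolignols of lignin, laid down in the walls of vessels and fibres, and the flavonoids, which begin with chalcone synthase (CHS) and chalcone isomerase (CHI). In Arabidopsis different 4CL genes serve these branches, and a set of related peroxisomal enzymes activates fatty acyl precursors of jasmonate instead.

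The libraries were sequenced to like depth, with 17689285 to 24026259 reads recovered from the FPKM values per library. The leaf label was checked against the KEGG list of photosynthetic antenna proteins, of which 12 of 17 genes lay among the top 5% of genes by level, with a median of 494 FPKM. Over all tested genes the correlation between libraries was 0.875 to 0.940 within T, 0.888 to 0.932 within CK and 0.873 to 0.958 between the groups, so the ranges overlapped. The closest pair of all was T replicate 3 and CK replicate 1. Values without these libraries are given below where they change a result.

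The deposited annotation gives the 7 genes unlike functions. The GO term for 4-coumarate-CoA ligase activity is held by 2 of them, Cs_ont_1g009820 and Cs_ont_5g016610, and by 1 further gene of the table. The KEGG maps of phenylpropanoid and of ubiquinone synthesis, both of which use 4CL, are held together by 4 of 7: this pair, Cs_ont_4g026210 and Cs_ont_8g005780. Cs_ont_8g005780 and Cs_ont_5g044180 also hold the terms for fatty-acyl-CoA synthase activity, the peroxisome and jasmonate synthesis. Cs_ont_2g023650 has neither a GO term nor a KEGG map. Cs_ont_7g022600 is annotated as an RNA helicase of the spliceosome, the complex that removes introns, and has no ligase term. For 3 of 7 genes, then, the table holds neither a 4CL term nor the phenylpropanoid map.

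None of the 7 genes passed a test between T and CK. At an adjusted p under 0.05 (limma, Benjamini-Hochberg over all tested genes) 0 members were called, where 0.00609% of all tested genes were higher in T and 0% were lower. The criterion of the study asks for a 2-fold change and an unadjusted p no higher than 0.05. It took 0 of 7, against 2.36% of all tested genes, 1.27% higher and 1.08% lower. At an unadjusted p under 0.05 there were likewise 0 of 7, against 4.78% of all tested genes. The T and CK values overlapped in 7 of 7 members, where 8.17% of all tested genes did not overlap (4.46% with every T value above CK, 3.71% with every T value below). By estimate, 4 members were higher in T and 3 were lower, and their median log2 fold change was 0.092, against 0.019 for all tested genes. The genes also differed in the range of their level over the 6 libraries, which ran from 1.25-fold to 9.10-fold.

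**Figure D1:**
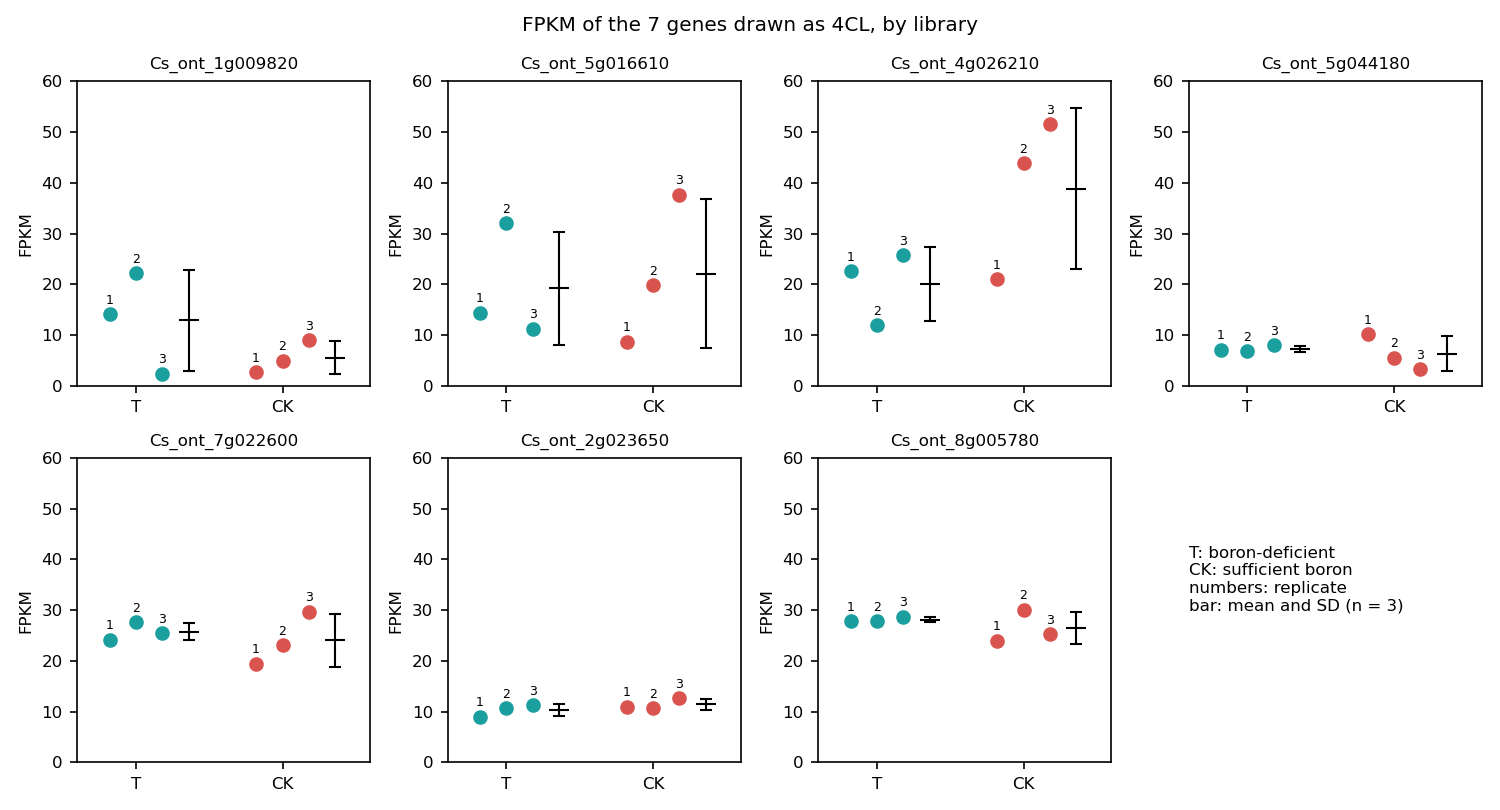
FPKM (vertical axis, 0 to 60 in every panel) of each of the 7 genes in the T and CK libraries, with points numbered by replicate and a bar for the mean and SD (n = 3). In the upper row single libraries spread 3.06-fold to 9.10-fold, while in the lower row they stay within 1.52-fold, and the T and CK points overlap in every panel.

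Cs_ont_1g009820, which carries the 4CL activity term and that of phenylpropanoid synthesis, had the widest range of the 7. Its FPKM was 14.2, 22.3 and 2.45 in T replicates 1 to 3, against 2.65, 5.01 and 9.05 in CK replicates 1 to 3. T replicates 1 and 2 lay above every CK library and T replicate 3 lay below every CK library. The mean was 13.0 ± 9.96 FPKM in T and 5.57 ± 3.24 FPKM in CK (SD, n = 3 each), a ratio of 2.33. The log2 fold change was 0.82 with a standard error of 0.75 and a 95% interval of -0.97 to 2.62 (adjusted p 0.999, limma). Exact permutation of the mean FPKM gave p = 0.4, two-sided, where 3 against 3 libraries cannot go below 0.1. Without T replicate 3 the log2 fold change was 1.64, which met the study's criterion (adjusted p 0.557, limma). Without T replicate 2 it was 0.26, and without CK replicate 1 it was 0.46.

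Cs_ont_5g016610 holds the 4CL activity term together with one for pollen exine, the sporopollenin wall of the pollen grain. It had 14.4, 32.0 and 11.2 FPKM in T replicates 1 to 3, against 8.67, 19.9 and 37.7 FPKM in CK replicates 1 to 3. The highest and the lowest library were both CK libraries and enclosed all 3 T values. The means were 19.2 ± 11.2 FPKM in T and 22.1 ± 14.7 FPKM in CK (SD, n = 3 each). The log2 fold change was -0.11 with a standard error of 0.58 (95% interval -1.50 to 1.28, adjusted p 0.999, limma), and the exact permutation p was 0.8. It turned to 0.018 without T replicate 1, 0.19 without T replicate 3 and 0.37 without CK replicate 3, so no direction can be given for this gene.

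Cs_ont_4g026210, on the phenylpropanoid map without a GO term, was the member nearest to a difference in the lower direction. Its FPKM was 22.6, 11.9 and 25.8 in T replicates 1 to 3, against 21.03, 44.0 and 51.5 in CK replicates 1 to 3. CK replicates 2 and 3 lay above every T library, and CK replicate 1 lay among the T values. The mean was 20.1 ± 7.25 FPKM in T and 38.8 ± 15.9 FPKM in CK (SD, n = 3 each). The log2 fold change was -0.89 with a standard error of 0.41 (95% interval -1.88 to 0.10, unadjusted p 0.0712, adjusted p 0.999, limma), and the exact permutation p was 0.3. Of the variance of this gene over the 6 libraries, 43.9% lay between the groups, the highest share among the 7. Without CK replicate 1 the log2 fold change was -1.27, and the gene then met the study's criterion (adjusted p 0.449, limma). Without T replicate 2 it was -0.57.

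Cs_ont_8g005780, with both the phenylpropanoid map and the terms for jasmonate synthesis, was the steadiest. It had 27.8, 27.9 and 28.7 FPKM in T replicates 1 to 3, against 24.0, 30.1 and 25.3 FPKM in CK replicates 1 to 3. The 3 T values lay close together inside the CK range. The coefficient of variation was 1.82% in T and 12.1% in CK, beside an error from read counting of up to 3.12%. The highest library was 1.25 times the lowest, and the log2 fold change was 0.092 with a standard error of 0.15 (95% interval -0.26 to 0.44, adjusted p 0.999, limma). This interval leaves out a doubling in either direction.

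Cs_ont_5g044180, the other gene with the peroxisomal and jasmonate terms, had the lowest mean over the 6 libraries. It had 7.13, 6.80 and 8.03 FPKM in T replicates 1 to 3, against 10.2, 5.58 and 3.34 FPKM in CK replicates 1 to 3. All 3 T values lay between CK replicates 1 and 2. The coefficient of variation was 8.66% in T and 55.1% in CK, a difference in spread that was not tested. The log2 fold change was 0.28 with a standard error of 0.35 (95% interval -0.56 to 1.12, adjusted p 0.999, limma), and it was -0.050 without CK replicate 3.

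Cs_ont_2g023650, the member with no annotation, and Cs_ont_7g022600, the gene annotated as a helicase, were both steady. Cs_ont_2g023650 had 9.004, 10.7 and 11.3 FPKM in T replicates 1 to 3, against 11.0, 10.6 and 12.7 FPKM in CK replicates 1 to 3. Cs_ont_7g022600 had 24.2, 27.6 and 25.5 FPKM in T replicates 1 to 3, against 19.5, 23.1 and 29.7 FPKM in CK replicates 1 to 3. In Cs_ont_2g023650 the groups overlapped, with T replicate 1 lowest and CK replicate 3 highest, and in Cs_ont_7g022600 all T values lay inside the CK range. Their log2 fold changes were -0.14 with a standard error of 0.17 (95% interval -0.53 to 0.26) for Cs_ont_2g023650 and 0.11 with a standard error of 0.19 (95% interval -0.34 to 0.56) for Cs_ont_7g022600. The value of Cs_ont_7g022600 was -0.024 without CK replicate 1.

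**Figure D2:**
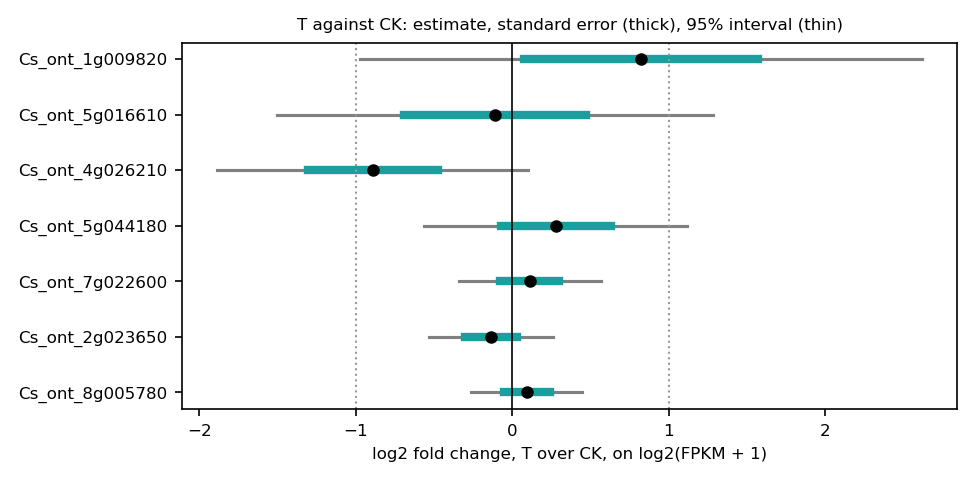
Log2 fold change of T over CK on log2(FPKM + 1) (horizontal axis) for each of the 7 genes, with the standard error as a thick bar and the 95% interval as a thin line; dotted lines mark a doubling and a halving. All 7 intervals include 0, and those of Cs_ont_8g005780, Cs_ont_2g023650 and Cs_ont_7g022600 lie inside the dotted lines.

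By the ratio of the highest to the lowest of the 6 libraries the members fell on either side of 2. This division was made on the values themselves and is a description. Cs_ont_8g005780 (1.25), Cs_ont_2g023650 (1.41) and Cs_ont_7g022600 (1.52) stayed below it. Cs_ont_5g044180 (3.06), Cs_ont_4g026210 (4.32), Cs_ont_5g016610 (4.35) and Cs_ont_1g009820 (9.10) lay above it, and the values nearest to 2 were those of Cs_ont_7g022600 and Cs_ont_5g044180. Single libraries moved these ratios. That of Cs_ont_5g044180 was 1.83 without CK replicate 3, so its place above 2 rests on that library. The ratio of Cs_ont_1g009820 was 5.80 without T replicate 2, and that of Cs_ont_4g026210 was 2.45 without T replicate 2. Among all tested genes with no library at 0, the median ratio was 1.93 and the 90th percentile was 7.54. Ranked by the SD of log2(FPKM + 1) over the 6 libraries, Cs_ont_8g005780 stood at percentile 5.57 of all tested genes, Cs_ont_2g023650 at 11.6 and Cs_ont_7g022600 at 26.4. The variable genes stood at 69.7 (Cs_ont_5g044180), 86.2 (Cs_ont_4g026210), 88.2 (Cs_ont_5g016610) and 95.3 (Cs_ont_1g009820).

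The division followed the lowest number of reads in any library in part. The genes with the lowest numbers, 126, 147 and 280, were variable, and those with the highest, 828 and 1029, were steady. In between, Cs_ont_2g023650 (412) was steady and Cs_ont_4g026210 (633) was variable. The lowest library enters both the ratio and this number, so they are linked by construction and the order does not speak for read number. A part of read number in the division was not tested. The variable genes rested on 126 to 1256 reads per library in Cs_ont_1g009820, 147 to 358 in Cs_ont_5g044180, 280 to 1532 in Cs_ont_5g016610 and 633 to 2903 in Cs_ont_4g026210. The steady genes rested on 412 to 789 reads in Cs_ont_2g023650, 828 to 1588 in Cs_ont_7g022600 and 1029 to 1418 in Cs_ont_8g005780. The largest counting error of any member in any library was a coefficient of variation of 8.91%, that of Cs_ont_1g009820 in CK replicate 1, against a spread between libraries of 76.8% in T and 58.1% in CK for the same gene. In Cs_ont_5g044180 the spread was 8.66% in T and 55.1% in CK, against a counting error of at most 8.25%. Both genes with the 4CL activity term were among the variable ones, and the helicase and the gene without annotation were among the steady ones. The genes with the jasmonate terms were split, Cs_ont_8g005780 steady and Cs_ont_5g044180 variable.

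**Figure D3:**
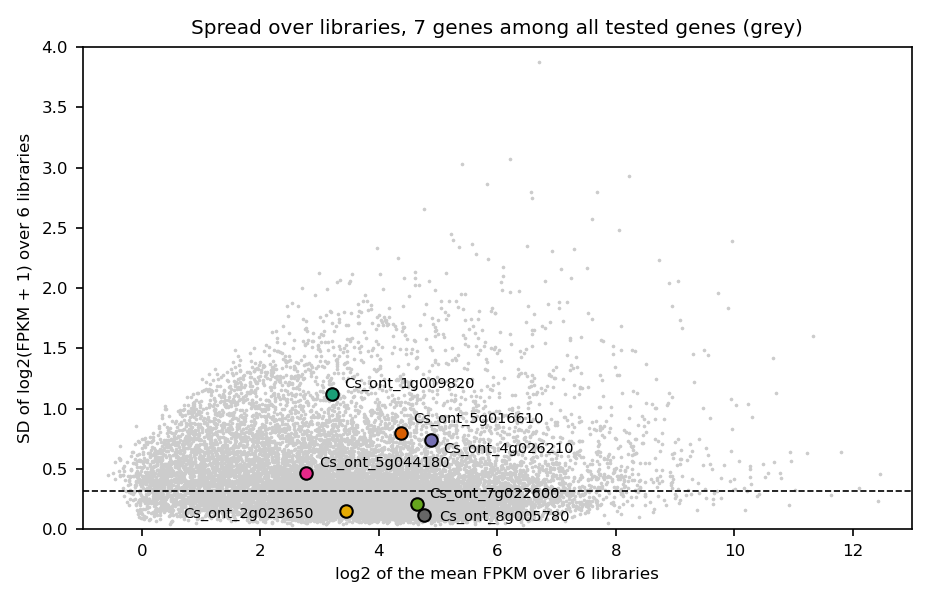
SD of log2(FPKM + 1) over the 6 libraries (vertical axis) against the log2 of the mean FPKM (horizontal axis) for all tested genes in grey and the 7 genes in colour; the dashed line is the median SD of all tested genes, 0.314. The 3 steady genes lie below the line and the 4 variable genes above it, at like mean levels.

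Added up, the 7 genes gave 119, 139 and 113 FPKM in T replicates 1 to 3, against 97.0, 138 and 169 FPKM in CK replicates 1 to 3. The T sums lay inside the CK range, with means of 124 ± 13.7 FPKM in T and 135 ± 36.3 FPKM in CK (SD, n = 3 each). The log2 ratio of the means was -0.12, and it was 0.074 without CK replicate 3. The 3 steady genes together stayed between 54.5 and 67.7 FPKM over the 6 libraries, while the 4 variable genes ranged over 42.6 to 102 FPKM. The pair with the 4CL activity term made up 28.6, 54.3 and 13.7 FPKM in T replicates 1 to 3, against 11.3, 24.9 and 46.8 FPKM in CK replicates 1 to 3. T replicate 3 and CK replicate 1 were the lowest libraries of this pair, and T replicate 2 was the highest.

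The gene that led the sum changed between libraries. Cs_ont_8g005780 led in T replicates 1 and 3 and in CK replicate 1, Cs_ont_5g016610 in T replicate 2, and Cs_ont_4g026210 in CK replicates 2 and 3. Cs_ont_1g009820 took 2.16% to 16.0% of the sum in T and 2.73% to 5.34% in CK. Cs_ont_4g026210 took 8.57% to 22.8% of the sum in T and 21.7% to 31.8% in CK. The ratio of Cs_ont_1g009820 to Cs_ont_4g026210 was 0.628, 1.87 and 0.0948 in T replicates 1 to 3, against 0.126, 0.114 and 0.176 in CK replicates 1 to 3. T replicates 1 and 2 were above all CK libraries in this ratio and T replicate 3 was below them.

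By mean FPKM the order in T was Cs_ont_8g005780, Cs_ont_7g022600, Cs_ont_4g026210, Cs_ont_5g016610, Cs_ont_1g009820, Cs_ont_2g023650 and Cs_ont_5g044180. Neighbours in this order overlapped in their 3 values except Cs_ont_8g005780 with Cs_ont_7g022600 and Cs_ont_2g023650 with Cs_ont_5g044180. In CK the order was Cs_ont_4g026210, Cs_ont_8g005780, Cs_ont_7g022600, Cs_ont_5g016610, Cs_ont_2g023650, Cs_ont_5g044180 and Cs_ont_1g009820, and here all neighbours overlapped except Cs_ont_2g023650 with Cs_ont_5g044180.

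**Figure D4:**
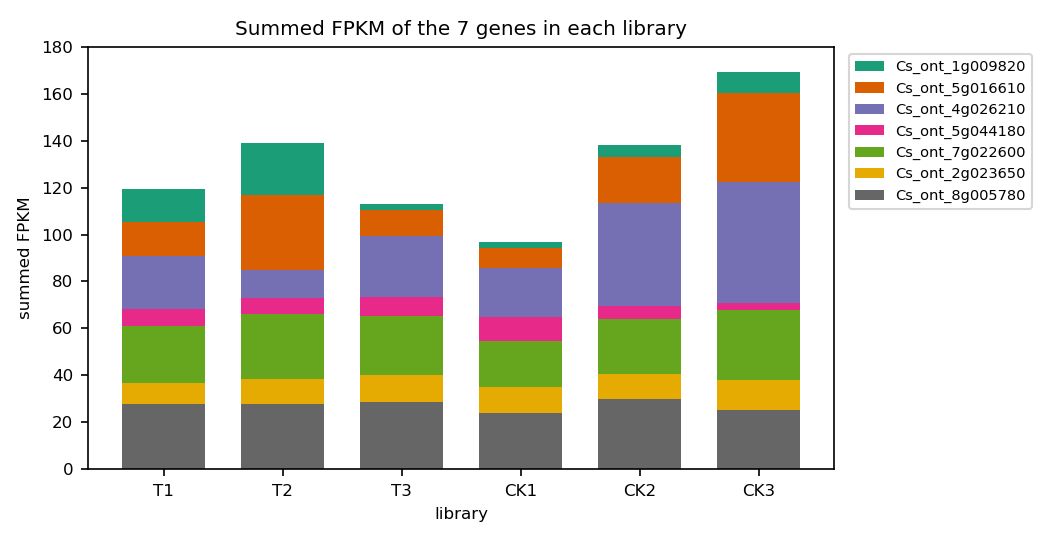
Summed FPKM of the 7 genes (vertical axis) in each of the 6 libraries, T replicates 1 to 3 and then CK replicates 1 to 3, with each gene as a coloured segment. The 3 steady genes at the foot of the bars together hold between 54.5 and 67.7 FPKM, and the total runs over 97.0 to 169 FPKM.

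The members did not move as a unit. Over the 6 libraries, 21 pairs of members were correlated on log2(FPKM + 1), 12 positively and 9 negatively, and 0 passed Benjamini-Hochberg adjustment for either Pearson's r (lowest adjusted exact permutation p 0.438) or Spearman's rho (lowest 0.35). At an exact permutation p under 0.05 there were 2 pairs. Cs_ont_5g016610 ran against Cs_ont_5g044180 with r = -0.845 (exact permutation p 0.0278) and rho = -0.943 (exact permutation p 0.0167), and r was -0.524 without CK replicates 1 and 3. Cs_ont_5g016610 ran with Cs_ont_7g022600 with r = 0.833 (exact permutation p 0.0417) and rho = 0.771 (exact permutation p 0.103), and r was 0.47 without these libraries. The sign changed in 8 of 21 pairs when the 2 libraries farthest from the median of the first gene were left out. The pair with the 4CL activity term had r = 0.699 (exact permutation p 0.147) and rho = 0.657 (exact permutation p 0.175), and r was 0.49 without T replicates 2 and 3.

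The study sets CsBBX14, a B-box transcription factor gene (Cs_ont_8g020600), beside the flavonoid pathway. CsBBX14 had 9.73, 14.6 and 8.74 FPKM in T replicates 1 to 3, against 2.08, 5.53 and 6.79 FPKM in CK replicates 1 to 3, with every T library above every CK library, as in 4.46% of all tested genes. Over the 6 libraries 0 of 7 members correlated with it at an exact permutation p under 0.05 (lowest adjusted p 0.389). The highest coefficients were r = 0.762 for Cs_ont_7g022600 (exact permutation p 0.111, rho 0.6, exact permutation p 0.242) and r = 0.718 for Cs_ont_1g009820 (exact permutation p 0.0833, rho 0.657, exact permutation p 0.175). Without T replicate 2 and CK replicate 1 they were 0.013 and 0.213, which leaves out both ends of the CsBBX14 range. For Cs_ont_5g016610 r was 0.545 over the 6 libraries (exact permutation p 0.253) and -0.584 without these libraries. For Cs_ont_5g044180 it was -0.290 (exact permutation p 0.603) and 0.589 without them. The sign changed in this way in 3 of 7 members. Between deviations from the group means r was 0.957 for Cs_ont_5g016610, 0.877 for Cs_ont_7g022600 and 0.701 for Cs_ont_1g009820. It was -0.909 for Cs_ont_5g044180 and 0.315 to 0.435 for the remaining members. These values are given without a test.

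Upstream of 4CL, the table holds 3 genes with the GO term for PAL, the entry enzyme of the pathway, and none of them met the study's criterion. Cs_ont_7g006400, the most abundant, had 36.7, 26.2 and 14.3 FPKM in T replicates 1 to 3, against 14.0, 50.1 and 54.4 FPKM in CK replicates 1 to 3. Cs_ont_6g020600 had 32.3, 52.5 and 7.44 FPKM in T replicates 1 to 3, against 9.07, 22.9 and 58.3 FPKM in CK replicates 1 to 3. T replicate 3 and CK replicate 1 were the lowest libraries for all 3 PAL genes, as they were for Cs_ont_1g009820 and Cs_ont_5g016610 among the members. These were the lowest 2 libraries for 2 of 7 members, against 16.3% of all tested genes. This pair of libraries was singled out after the values were seen, and the counts are a description. For C4H 0 genes of the table held the GO term searched, so the C4H genes of the study's scheme are not described here.

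Of 21 pairs of a PAL gene and a member, a set added after the values were seen, 4 had an exact permutation p under 0.05 and 0 passed adjustment (lowest adjusted p 0.136). Cs_ont_6g020600 ran with Cs_ont_5g016610 (r = 0.908, exact permutation p 0.0194, rho 0.886, exact permutation p 0.0333) and with Cs_ont_1g009820 (r = 0.884, exact permutation p 0.0306, rho 0.829, exact permutation p 0.0583). Without T replicate 3 and CK replicate 1 these coefficients were 0.811 and 0.592. Cs_ont_6g020620, the least abundant PAL gene, ran with Cs_ont_1g009820 (r = 0.924, exact permutation p 0.0139, rho 0.943, exact permutation p 0.0167, and 0.693 without T replicates 1 and 2). Cs_ont_7g006400 ran against Cs_ont_5g044180 (r = -0.856, exact permutation p 0.00833, rho -0.943, exact permutation p 0.0167, and -0.763 without T replicate 3 and CK replicate 1).

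Genes annotated to secondary cell wall formation, a process of xylem and fibres, were low in the same libraries as these members. Of 39 genes on this GO list, which holds no member, 25 passed the filter, 0 met the criterion in either direction, and 3 (Cs_ont_5g024630, Cs_ont_9g028680 and Cs_ont_Un005250) were listed at 0 in all 6 libraries. The list summed to 305, 345 and 253 FPKM in T replicates 1 to 3, against 216, 317 and 406 FPKM in CK replicates 1 to 3. The 6 libraries stood in the same order by this sum as by Cs_ont_5g016610, with CK replicate 1 lowest, T replicate 3 next and CK replicate 3 highest. CK replicate 1 and T replicate 3, the pair singled out after the values were seen, were the lowest libraries in 18 of the 25 tested genes of the list. This was 72%, against 16.3% of all tested genes, and is a description. The GO list of xylem development, also with 25 tested genes, stood in another order. It summed to 402, 352 and 433 FPKM in T replicates 1 to 3, against 210, 296 and 366 FPKM in CK replicates 1 to 3. CK replicate 1 was lowest here but T replicate 3 was the highest of all 6. CK replicate 1 and T replicate 3 were the lowest libraries in 8 of its 25 genes (32%). Among the 36 genes of this list in the table, 3 (Cs_ont_2g000230, Cs_ont_2g000250 and Cs_ont_9g020720) were listed at 0 throughout. In bulk leaf RNA, fewer cells of a type and less RNA per cell cannot be told apart, and the part of vein or xylem tissue in the spread of the 4CL genes was not tested.

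**Figure D5:**
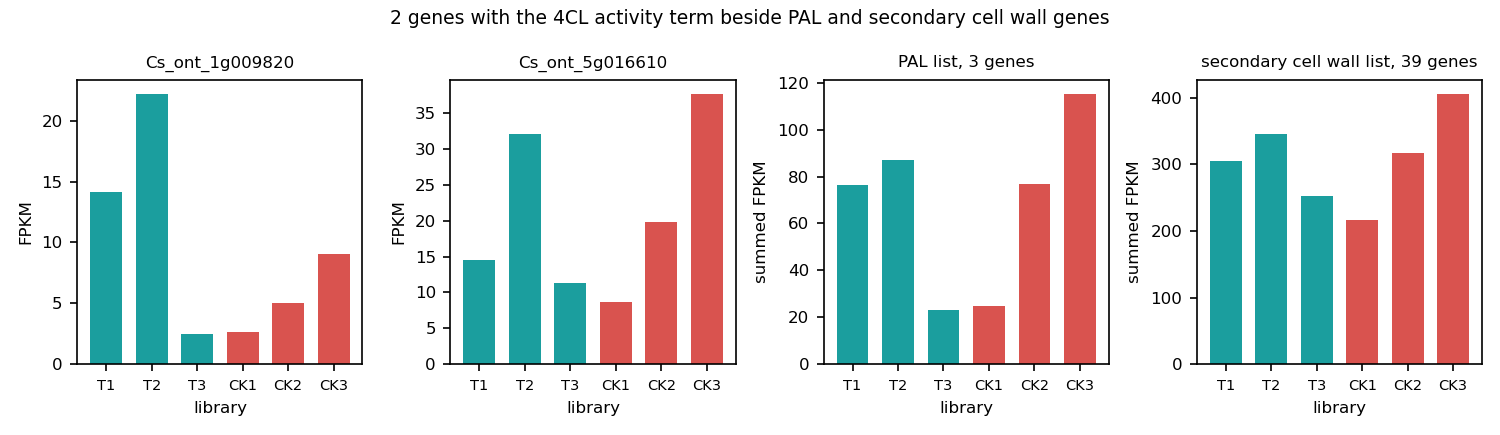
FPKM of Cs_ont_1g009820 and Cs_ont_5g016610, and summed FPKM of the 3 PAL genes and of the 39 genes on the secondary cell wall list, in T replicates 1 to 3 and CK replicates 1 to 3; each bar is 1 library. T replicate 3 and CK replicate 1 are the lowest bars in all 4 panels.

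Downstream, genes of the flavonoid and lignin branches also spread widely within each group. These genes were taken by GO term, and the study's scheme draws further CHS and CHI genes that are not described here. CHS is the first enzyme of the flavonoid branch. Cs_ont_9g012610, the only gene with its term that passed the filter, had 0.339, 4.30 and 0.0946 FPKM in T replicates 1 to 3, against 0.559, 6.95 and 4.14 FPKM in CK replicates 1 to 3. CHI closes the flavanone ring. Cs_ont_7g003040, the only gene with the CHI term, had 11.5, 31.5 and 4.97 FPKM in T replicates 1 to 3, against 5.54, 18.5 and 56.1 FPKM in CK replicates 1 to 3. In both genes the groups overlapped and T replicate 3 was the lowest library. The caffeoyl-CoA O-methyltransferase gene Cs_ont_8g024920, of the lignin branch, had 41.8, 33.1 and 9.93 FPKM in T replicates 1 to 3, against 6.53, 13.3 and 26.1 FPKM in CK replicates 1 to 3.

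Of the step genes, 1 met the study's criterion, where 2.36% of all tested genes met it. This was Cs_ont_1g011170, a gene for cinnamoyl-CoA reductase, which takes CoA esters into monolignols. The gene rested on 5 to 347 reads per library, with a counting error of up to 44.7%. It had 16.2, 3.32 and 1.84 FPKM in T replicates 1 to 3, against 0.346, 0.213 and 1.86 FPKM in CK replicates 1 to 3. CK replicate 3 overlapped with T replicate 3, and the log2 fold change of 1.83 with a standard error of 0.71 had an adjusted p of 0.986 (limma). The other gene with the GO term for this enzyme, Cs_ont_1g011180, had a log2 fold change of -0.014.

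Over the whole KEGG map of phenylpropanoid synthesis, 94 of 198 genes passed the filter, 11 met the criterion with higher levels in T and 0 with lower, where 1.27% of all tested genes were higher and 1.08% lower. Leaving out 1 library at a time gave 7 to 19 higher and 0 to 4 lower. The median log2 fold change was 0.14, against 0.019 for all tested genes. None of the 11 was a member. On the flavonoid map 24 of 54 genes passed, 1 was higher in T by the criterion and 0 were lower, with a median of -0.12. Among 15 tested genes with the GO term for lignin synthesis 1 was higher by the criterion and 0 were lower, with a median of -0.22. By estimate 4 of these genes were higher and 11 lower, where 46.8% of all tested genes were lower. Among 17 with the term for jasmonate synthesis, which include Cs_ont_8g005780 and Cs_ont_5g044180, 1 was higher by the criterion and 0 were lower, with a median of 0.28.

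Other genes of the table carry some of the members' annotations. Cs_ont_6g025120, the remaining gene with the 4CL activity term, was weak, with 0.799, 2.33 and 1.15 FPKM in T replicates 1 to 3, against 1.88, 1.86 and 2.30 FPKM in CK replicates 1 to 3. Cs_ont_1g006760 shares the phenylpropanoid and ubiquinone maps with 4 members, and also has the flavonoid map, which no member has. It holds neither the 4CL activity term nor that for fatty-acyl-CoA synthase activity, so the annotation does not make it a ligase. It was more abundant than any member in every library, at 122 to 142 FPKM in T and 104 to 174 FPKM in CK. Its T and CK values overlapped, and the standard error of its log2 fold change, 0.24, exceeded the estimate. Near copies may share reads: by the running numbers of the identifiers, Cs_ont_8g005850, with the same ligase terms, lies close to Cs_ont_8g005780, and Cs_ont_5g044160 lies close to Cs_ont_5g044180. Cs_ont_8g005850 ran over 12.5 to 17.5 FPKM in the 6 libraries and Cs_ont_5g044160 over 5.63 to 7.999 FPKM. How the counting treated reads that fit several genes is not given in the sources used here.

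Cs_ont_7g022600, the gene annotated as a helicase, has a neighbour with a ligase term. Cs_ont_7g022660 lies 6 places further on among the identifiers of the table and holds the term for fatty-acyl-CoA synthase activity. It was low, with 0.245, 0.767 and 0.128 FPKM in T replicates 1 to 3, against 0.199, 1.18 and 0.226 FPKM in CK replicates 1 to 3. It did not pass the filter.

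For each member, the genes whose level ran most like it over the 6 libraries were taken from annotated genes with a mean of at least 5 FPKM, by Pearson's r on log2(FPKM + 1). The values were the highest among 7073 candidates (7074 for Cs_ont_2g023650) over 6 libraries, and they are a description with no test. Cs_ont_5g016610 had 99 genes above 0.95, led by Cs_ont_1g022840 (r = 0.998), annotated with receptor kinase binding, and Cs_ont_7g000440 (r = 0.997), a membrane transporter. Cs_ont_1g009820 had 56, led by Cs_ont_6g018460 (r = 0.995), annotated with clathrin heavy chain binding, and Cs_ont_9g026830 (r = 0.991). Cs_ont_4g026210 had 31, led by Cs_ont_3g021880 (r = 0.994), annotated as a transcription factor, and Cs_ont_6g009460 (r = 0.994), of glycerolipid metabolism. Cs_ont_7g022600 had 31, led by Cs_ont_6g007350 (r = 0.986), annotated to the spliceosome, and Cs_ont_3g018860 (r = 0.985), annotated to carotenoid synthesis. Cs_ont_2g023650 had 22, led by Cs_ont_4g010110 (r = 0.995) and Cs_ont_7g012760 (r = 0.986). Cs_ont_5g044180 had 7, led by Cs_ont_6g009380 (r = 0.985) and Cs_ont_2g022570 (r = 0.983). Cs_ont_8g005780 had 3, led by Cs_ont_5g020770 (r = 0.978) and Cs_ont_1g002610 (r = 0.955).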

How the data were processed

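Leaf RNA of 6 libraries, 3 of T and 3 of CK, was analysed from the deposited table of FPKM per gene. Per the study's methods, the authors used fastp for trimming, HISAT2 for alignment and HTSeq for counting per gene, and turned the counts into FPKM. Release v3.0 of the genome is named in the paper but not tied to the alignment, and tool versions were not given in the sources used here. Further columns hold the authors' group means, log2 fold changes, p-values and calls, made with DESeq, none of which were used. GO and KEGG annotations come from the same table. Identifiers could not be matched to the RefSeq gene table, so no sequence or coordinate is given.

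The comparison of T with CK was made in limma 3.58.1 (R 4.3.3, intensity trend) on log2(FPKM + 1), two-sided, over 16421 genes, those reaching an FPKM of 1 in 3 or more libraries. The pseudocount of 1 understates the change of low genes. The study's count test could not be the main one, as the unit is FPKM. Whole reads were recovered from the FPKM steps for 22738 of 22740 genes above 0, with a length within 0.001 base of a whole number for 98.1% before a common factor was put back in 416 genes. These reads give the depth and the counting errors, which leave out biological variation, and a limma voom fit called 0 genes on them. For single genes the mean FPKM was also permuted exactly, and correlations were tested over all 720 pairings. Other steps used matplotlib 3.10.9, pandas 2.3.3, scipy 1.17.1 and numpy 2.4.6 under Python 3.11.15.

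The rule for named genes took the 7 members, the most abundant gene of each pathway step list (not all of which are named), other genes annotated as 4CL, and the 2 annotated genes most correlated with each member. Other named PAL, cinnamoyl-CoA reductase and neighbouring genes were chosen after their values were seen. The members and the lists were chosen with earlier results of these data known. Alternatives changed the pseudocount, the filter, the scaling, the variance model, the pairing, the unit and the libraries used.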

Additional observations from a re-analysis of the deposited data

How the results depend on the processing

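Of the 7 members, Cs_ont_1g009820, Cs_ont_2g023650, Cs_ont_4g026210 and Cs_ont_8g005780 kept the direction of their log2 fold change under all 17 alternatives, and no member reached an adjusted p under 0.05 in any of them (lowest 0.355, Cs_ont_1g009820). Leaving out 1 library at a time moved the log2 fold change of Cs_ont_1g009820 over 0.26 to 1.64, Cs_ont_2g023650 over -0.20 to -0.050, Cs_ont_4g026210 over -1.27 to -0.57, Cs_ont_5g016610 over -0.63 to 0.37, Cs_ont_5g044180 over -0.050 to 0.64, Cs_ont_7g022600 over -0.024 to 0.27 and Cs_ont_8g005780 over 0.027 to 0.18. The direction turned for Cs_ont_5g016610 (0.018 without T replicate 1, 0.19 without T replicate 3, 0.37 without CK replicate 3), Cs_ont_5g044180 (-0.050 without CK replicate 3) and Cs_ont_7g022600 (-0.024 without CK replicate 1). The log2 ratio of the summed FPKM moved over -0.31 to 0.074. Members meeting the study's criterion numbered 0 to 1.

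Over all tested genes, leaving out 1 library gave 0 to 2 calls at the adjusted threshold, where the full set gave 1. By the criterion it gave 121 to 398 genes higher in T and 120 to 396 lower, 7 to 19 higher and 0 to 4 lower on the phenylpropanoid map, and 1 to 4 higher and 0 to 1 lower on the flavonoid map. The adjusted threshold called 0 genes with no filter, in limma voom on the recovered reads and without CK replicate 1 and T replicate 3, and 12 with array weights. Array weights took 567 genes higher and 363 lower by the criterion, 24 higher on the phenylpropanoid map and 4 on the flavonoid map. A filter at 5 FPKM took 137 higher. Leaving out CK replicate 1 and T replicate 3 together, an alternative chosen after the data were seen, took 432 higher and 461 lower, 5 lower on the phenylpropanoid map, and 3 higher and 1 lower on the flavonoid map. It took 2 members, Cs_ont_1g009820 at 1.27 and Cs_ont_4g026210 at -1.48, and gave -0.016 for Cs_ont_7g022600. The cause of these shifts was not tested.

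Whether the replicate numbers pair the libraries was not settled. The deviations of same-numbered libraries correlated at 0.282, 0.212 and -0.0373, against -0.404 to 0.227 for libraries of different numbers. With the replicate block, 0 genes passed the adjusted threshold and the criterion took 270 higher and 200 lower. With 3 libraries per group the exact permutation test cannot go below 0.1, and at the lowest depth of a member, 126 reads, counting error stays below the spread between libraries.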

Other observations

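Ligases that join coenzyme A to other acids were described beside the 7 genes. Of 8 genes with the GO term for long-chain fatty acid-CoA ligase activity, none of them a member, 6 passed the filter, 1 met the study's criterion as lower in T and 0 as higher, against 1.08% and 1.27% of all tested genes. The list summed to 297, 244 and 293 FPKM in T replicates 1 to 3, against 298, 424 and 378 FPKM in CK replicates 1 to 3. The T sums lay below the CK sums, with T replicate 1 and CK replicate 1 almost level. The most abundant gene of the list, Cs_ont_5g049450, had 127, 98.1 and 104 FPKM in T replicates 1 to 3, against 118, 149 and 110 FPKM in CK replicates 1 to 3, and overlapped.

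Photosynthesis genes were mostly lower in T by estimate, where 46.8% of all tested genes were lower. All 15 tested genes of the antenna protein list were lower by estimate (median log2 fold change -0.53), and 0 of 15 met the criterion. Their summed level was 9884, 20167 and 9934 FPKM in T replicates 1 to 3, against 16753, 19642 and 15372 FPKM in CK replicates 1 to 3. T replicate 2 was the highest of all 6 libraries, and T replicates 1 and 3 were the lowest. On the KEGG photosynthesis map 32 of 39 tested genes were lower by estimate, 0 of 39 met the criterion, and the median was -0.29. On the KEGG map of alpha-linolenic acid, the source of jasmonate, 25 of 34 tested genes were higher by estimate, against 53.2% of all tested genes, with a median of 0.29. Of these genes 1 (2.94%) met the criterion as higher and 0 as lower, against 2.36% of all tested genes in either direction.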
